A study of Mus musculus with 12 samples.

Results

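Hox genes are described here in the mouse line mpkCCD, which goes back to principal cells of the cortical collecting duct. The members were all genes whose symbol is Hoxa, Hoxb, Hoxc or Hoxd followed by a number, with no condition on their level, which gave 39 of the 52015 genes in the deposited values. The 12 libraries fall into 4 groups. Scr_300 and Scr_600, with 2 libraries each, are cells that received a scramble, non-targeting guide RNA. Nfat5-KO_300 and Nfat5-KO_600, with 4 libraries each, come from 2 CRISPR/Cas9 clones (N1 and N3, with 2 libraries per clone and osmolality) in which Nfat5, the gene of a transcription factor activated by hypertonicity, was targeted. Groups marked 300 were grown at 300 mosmol/kg (isotonic) and groups marked 600 at 600 mosmol/kg (hypertonic, with 100 mM NaCl and 100 mM urea added), all for 5 days on plastic. The study compared the genotypes within each osmolality and the osmolalities within each genotype. The deposited values hold 1 FPKM value (fragments per kilobase of gene, scaled to the mapped reads of a library) per gene and group, so the spread between libraries and between the 2 clones is not known, and each difference below is a ratio of 2 values without a replicate check. An effect of the knockout and a trait of the clones cannot be told apart.

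Hox genes encode homeodomain transcription factors that give cells a position along the body axis. They lie in clusters, all read in one direction, and members with the same number (a paralogue group) descend from one ancestral gene. Within a cluster the genes are switched on in the order in which they lie, low numbers in anterior and high numbers in posterior tissue, and Polycomb proteins keep the rest silent. The ureteric bud, from which the collecting duct grows, carries its own set of Hox genes, of which Hoxb7 is widely used as a marker, whereas Hox11 genes act in the metanephric mesenchyme beside it.

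The depth of each library could be approximated, since the lowest values fall on steps that correspond to 1 read in 1 library. These steps gave about 30800000 to 37100000 reads per library in the 4 groups. Numbers of reads below are estimates from the same steps and are summed over the libraries of a group. Nfat5 itself was listed at 5.61 FPKM in Scr_300, 7.93 in Scr_600, 3.47 in Nfat5-KO_300 and 6.88 in Nfat5-KO_600. Its RNA was thus 0.68 lower on the log2 scale in the isotonic and 0.20 lower in the hypertonic knockout columns, and a level of RNA does not show whether the protein is made. Of 14 markers of the principal cell, 8 reached 0.5 FPKM in a group, among them the keratins Krt8 and Krt18, the cadherin Cdh1 and the transcription factor Tfcp2l1. The water channel Aqp2 and the vasopressin receptor Avpr2, which define the cell type, were at most 0.24 and 0.02 FPKM. All markers of podocytes, fibroblasts and endothelium were below 0.5 FPKM. Of other cell types, 1 of 5 markers of intercalated cells (Atp6v1b1), 1 of 4 of the proximal tubule (Lrp2) and 1 of 2 of leukocytes (Cd68) reached 0.5 FPKM in a group.

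mpkCCD cells had a defined set of Hox genes that was nearly the same in the 4 groups. Of the 39 genes, 23 reached 0.5 FPKM in at least 1 group and are called expressed below, and 16 did not. In each of Scr_300, Scr_600 and Nfat5-KO_300, 22 were at or above 0.5 FPKM, and in Nfat5-KO_600 there were 23, the additional one being Hoxd3. Of all genes in the values, 23.7 to 24.3% reached this level in a group. The level separated the members by their maxima, as the lowest maximum of an expressed member was 0.54 FPKM (Hoxd3) and the highest value of the others was 0.143 FPKM (Hoxc6 in Scr_600). Hoxd3 itself was not clearly set apart, as it lay between 0.174 and 0.380 FPKM in the groups other than Nfat5-KO_600. The order of levels among the 23 was close to the same in each pair of groups, with Spearman's rho of 0.956 to 0.987 across these genes, which share cells and clusters and are not independent. In such bulk values, fewer cells that express a gene and less RNA per cell cannot be told apart. The plot of levels by paralogue group shows the pattern in each cluster.

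**Figure D1:**
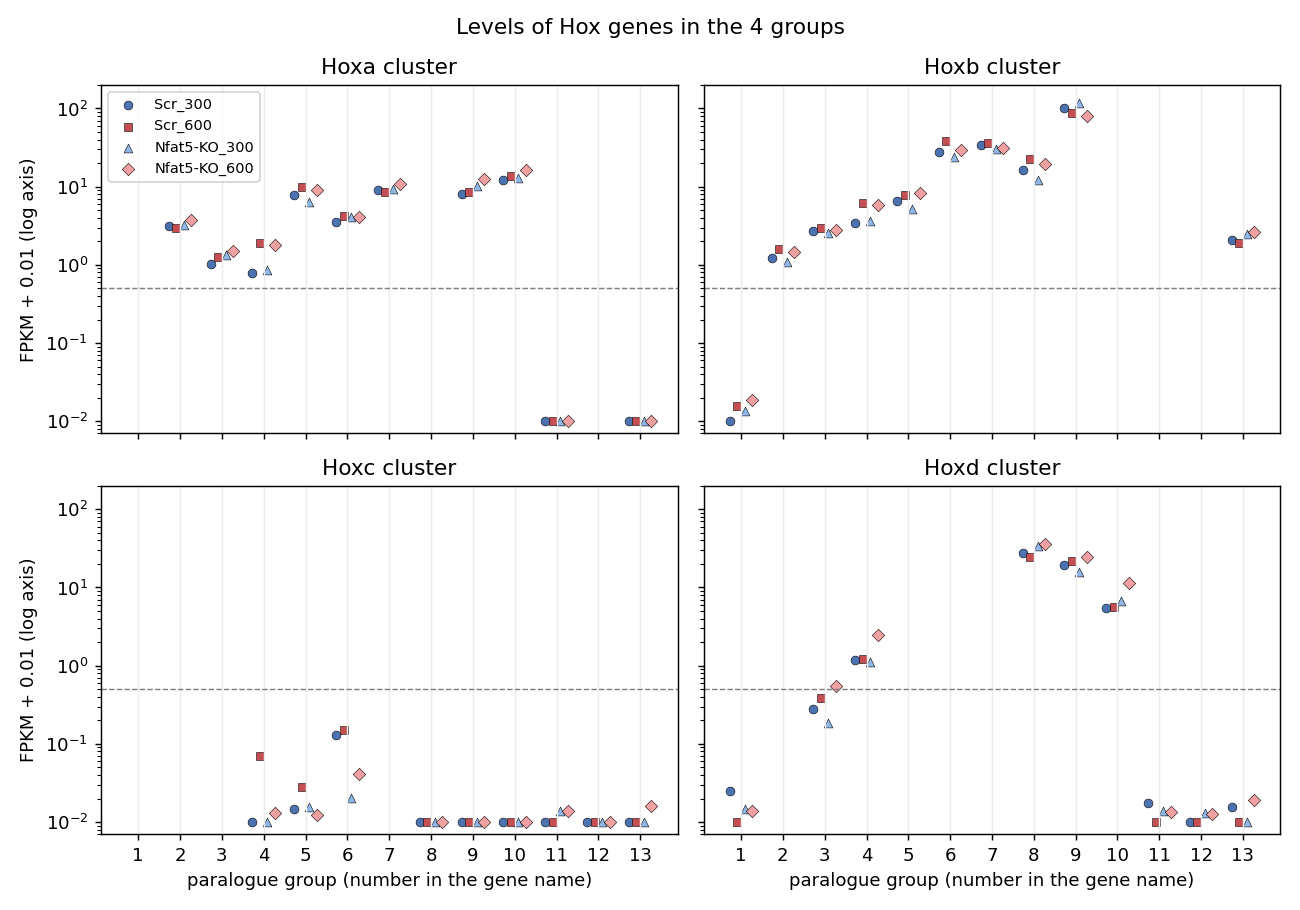
FPKM + 0.01 (log axis) of 38 Hox genes by paralogue group, 1 panel per cluster, with 1 point for each of the 4 groups and no error, as there is 1 value per group. The dashed line marks 0.5 FPKM. The Hoxa and Hoxb genes shown were expressed with the exception of Hoxa11, Hoxa13 and Hoxb1, no Hoxc gene was expressed, and Hoxd genes were expressed from Hoxd3 to Hoxd10.

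The Hoxb cluster (chromosome 11, 173.9 kb in GRCm38) had the highest levels. It held 9 expressed genes of 10 and 65.9% of the summed Hox FPKM in Scr_300, 65.6% in Scr_600, 64.8% in Nfat5-KO_300 and 57.2% in Nfat5-KO_600. Hoxb9, which helps to pattern the thoracic skeleton and the mammary gland, was the highest Hox gene in every group, with 101.6 FPKM in Scr_300, 86.8 in Scr_600, 118.8 in Nfat5-KO_300 and 80.7 in Nfat5-KO_600. In Scr_300 it lay at the percentile 97.2 of the genes expressed in any group, and it took 25.3 to 38.6% of the summed Hox FPKM of a group. Both isotonic columns of Hoxb9 were above both hypertonic columns.

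The ureteric bud marker Hoxb7 was listed at 34.0, 35.9, 30.1 and 31.5 FPKM in Scr_300, Scr_600, Nfat5-KO_300 and Nfat5-KO_600. It was the second Hox gene by its mean and varied little between the groups. Its neighbour Hoxb6 was at 28.2, 38.0, 23.8 and 29.5 FPKM in the same order. Hoxb8, which is known for its part in grooming behaviour through microglia, was at 16.3, 22.3, 12.1 and 19.4 FPKM. Both Hoxb6 and Hoxb8 were lowest in Nfat5-KO_300 and highest in Scr_600. From Hoxb5 to Hoxb2, genes with known roles in the neck and hindbrain, the mean level over the groups became lower with each step along the cluster, from 6.99 (Hoxb5) through 4.80 (Hoxb4) and 2.76 (Hoxb3) to 1.34 FPKM (Hoxb2). Hoxb1, a gene of the fourth segment of the embryonic hindbrain, ended this series with at most 3 estimated reads in a group. Hoxb13, a gene of the tail bud, prostate and distal gut, lies 74009 bases from Hoxb9 and was expressed at 2.05, 1.88, 2.45 and 2.66 FPKM, or about 307 to 813 reads.

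The Hoxa cluster (chromosome 6, 105.3 kb) held 9 expressed genes of 11, up to Hoxa10, and was listed at 0 beyond. Hoxa10, a gene of the lumbar skeleton and the uterus, was its highest member with 12.1 FPKM in Scr_300, 13.7 in Scr_600, 13.1 in Nfat5-KO_300 and 16.4 in Nfat5-KO_600. Hoxa9, the gene known from leukaemia for its joint action with Meis1, was at 7.98, 8.45, 10.1 and 12.4 FPKM. Hoxa7 was at 9.12, 8.56, 9.37 and 10.9 FPKM and Hoxa5, which is needed for the lung, at 7.84, 9.99, 6.43 and 8.96 FPKM. These 4 genes were the highest of the cluster in every group. Lower members had means of 3.95 (Hoxa6), 3.26 (Hoxa2), 1.33 (Hoxa4) and 1.29 FPKM (Hoxa3). Hoxa11 and Hoxa13, genes of the kidney mesenchyme and of the distal limb, were listed at 0 in all 4 groups.

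The Hoxd cluster (chromosome 2, 96.8 kb) had 5 expressed genes of 9, all in its middle. Hoxd8 was at 27.2, 24.6, 33.7 and 35.8 FPKM in Scr_300, Scr_600, Nfat5-KO_300 and Nfat5-KO_600. Hoxd9, a paralogue of Hoxa9 and Hoxb9, was at 19.4, 22.1, 15.6 and 24.9 FPKM. Hoxd10, which acts in the lumbar spinal cord and the hindlimb, was at 5.51, 5.63, 6.61 and 11.2 FPKM, and its value in Nfat5-KO_600 stood apart from the other 3. Hoxd4 was at 1.16, 1.22, 1.11 and 2.48 FPKM and Hoxd3 at 0.268, 0.380, 0.174 and 0.540 FPKM. These last members cannot be fully separated, since their annotated starts lie 2 bases apart and 62.8% of the exonic bases of Hoxd3 and 52.3% of those of Hoxd4 lie in exons of other genes. Hoxd11, Hoxd12 and Hoxd13, which shape the distal limb and, for Hoxd11, the kidney, had at most 3 estimated reads in a group, as had Hoxd1 at the other end.

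The Hoxc cluster (chromosome 15, 115.8 kb) was not expressed. Hoxc8, Hoxc9, Hoxc10 and Hoxc12 were listed at 0 in all groups. Hoxc6 came closest, with about 21 reads in Scr_300, 26 in Scr_600, 3 in Nfat5-KO_300 and 10 in Nfat5-KO_600. All reads over the 9 Hoxc genes came to an estimated 22, 41, 6 and 15 in the 4 groups. The 7 other annotated genes of its span, which include the trans-acting RNA Hotair, were below 0.5 FPKM as well.

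By position, 6 of 8 members of paralogue groups 1 to 3, 11 of 15 of groups 4 to 8 and 6 of 16 of groups 9 to 13 were expressed. These counts also reflect the silent Hoxc cluster, which has no member in groups 1 to 3. All 4 members of groups 4 to 8 that were not expressed were Hoxc genes, as were 5 of 10 in groups 9 to 13. Although few in number, the 6 expressed posterior members made up 50.0% of the summed Hox FPKM in Scr_300, chiefly through Hoxb9. In the Hoxa and Hoxd clusters the edge was sharp and lay between the same paralogue groups, 10 and 11. From Hoxa10 to Hoxa11 the mean level went from 13.8 FPKM to 0 over 1251 bases between the genes. From Hoxd10 to Hoxd11 it went from 7.25 to 0.0037 FPKM over 4907 bases. The plot of levels along both clusters shows this edge in Scr_300 and in Nfat5-KO_600.

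**Figure D2:**
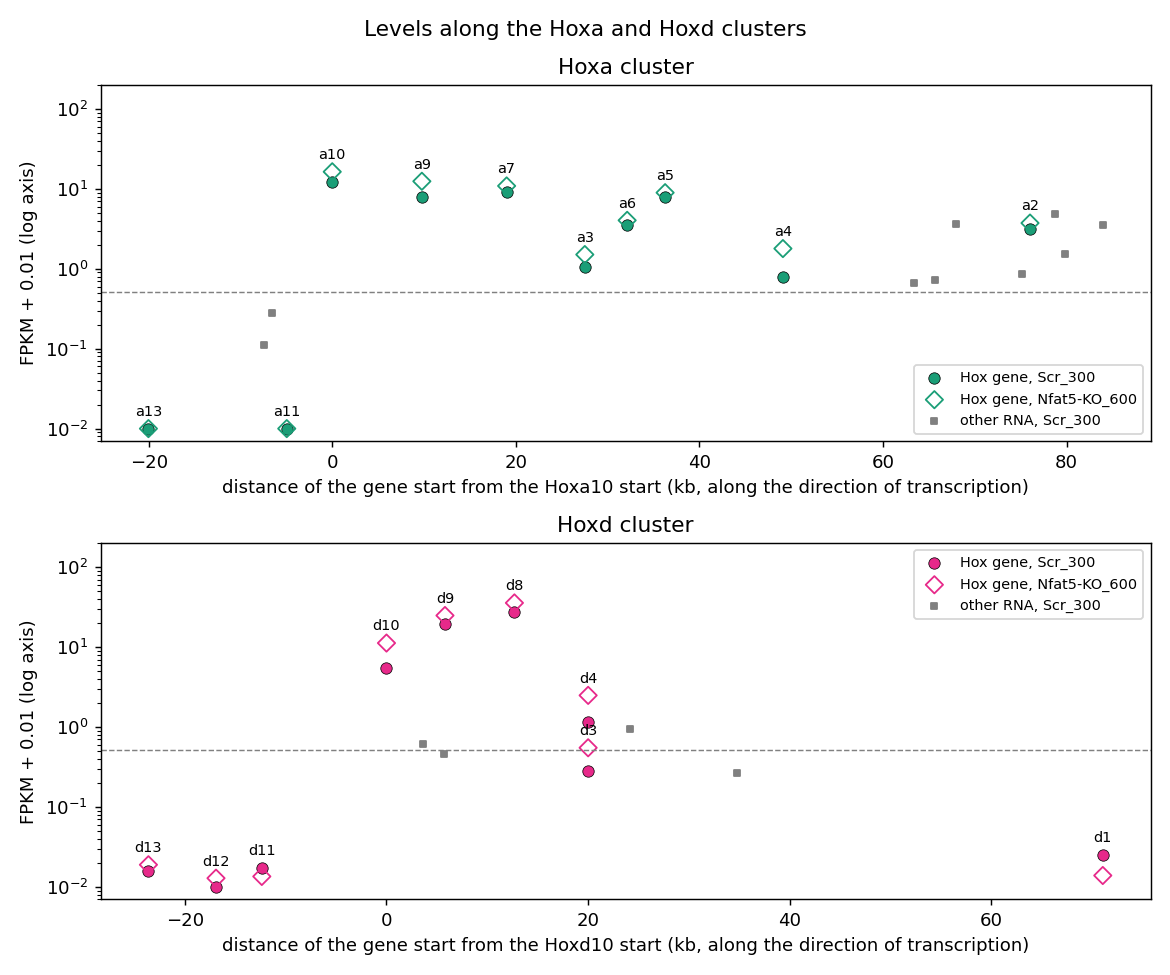
FPKM + 0.01 (log axis) of Hoxa genes (top) and Hoxd genes (bottom) against the distance of each gene start from the start of Hoxa10 or Hoxd10, in kb along the direction of transcription. Filled points are Scr_300, open diamonds Nfat5-KO_600, grey squares other annotated RNAs with at least 0.5 FPKM in a group, and the dashed line marks 0.5 FPKM. Hox genes left of Hoxa10 and Hoxd10 were at or near 0 in both groups.

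The promoters on either side of these edges are shown so that an expressed gene can be compared with its silent neighbour. Each runs from 250 bases before to 50 bases after the RefSeq start nearest to the GENCODE start of the gene (GRCm38.p6, on the strand of the gene), with each CpG, the dinucleotide at which mammalian DNA is methylated, in capitals.
Hoxa10, expressed, chr6:52240805-52241104, minus strand: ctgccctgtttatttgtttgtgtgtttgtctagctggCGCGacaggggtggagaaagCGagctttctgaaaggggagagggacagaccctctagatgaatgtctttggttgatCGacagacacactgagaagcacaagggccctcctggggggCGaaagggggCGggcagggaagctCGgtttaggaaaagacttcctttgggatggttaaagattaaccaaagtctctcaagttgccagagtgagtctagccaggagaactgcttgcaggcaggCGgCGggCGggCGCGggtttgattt
Hoxa11, listed at 0, chr6:52245761-52246060, minus strand: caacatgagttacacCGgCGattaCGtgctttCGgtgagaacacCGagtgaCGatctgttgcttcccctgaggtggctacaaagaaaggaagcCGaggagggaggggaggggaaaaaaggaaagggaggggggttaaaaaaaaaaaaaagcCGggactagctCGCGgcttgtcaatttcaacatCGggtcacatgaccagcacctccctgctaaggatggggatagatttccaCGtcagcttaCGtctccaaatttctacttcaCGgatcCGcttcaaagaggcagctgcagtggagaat
Hoxd10, expressed, chr2:74691641-74691940, plus strand: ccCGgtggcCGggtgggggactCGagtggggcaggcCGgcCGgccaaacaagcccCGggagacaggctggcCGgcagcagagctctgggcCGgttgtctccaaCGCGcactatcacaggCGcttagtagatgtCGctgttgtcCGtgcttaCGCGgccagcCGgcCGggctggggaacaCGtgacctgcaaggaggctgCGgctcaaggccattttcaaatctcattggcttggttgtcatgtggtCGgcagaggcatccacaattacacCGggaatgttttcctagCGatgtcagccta
Hoxd11, near 0, chr2:74679308-74679607, plus strand: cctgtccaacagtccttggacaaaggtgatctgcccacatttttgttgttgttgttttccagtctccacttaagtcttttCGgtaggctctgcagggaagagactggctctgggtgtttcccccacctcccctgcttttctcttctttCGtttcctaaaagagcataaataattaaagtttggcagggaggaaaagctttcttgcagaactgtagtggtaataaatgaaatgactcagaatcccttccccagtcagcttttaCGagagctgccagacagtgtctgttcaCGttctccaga

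The Hoxa10 and Hoxa11 windows held 12 and 15 CpGs, and the Hoxd10 and Hoxd11 windows 22 and 4. RefSeq windows were at hand for 22 of the 39 genes, 24 windows in all. The number of CpGs did not separate expressed from silent members. The median was 14 CpGs in the 15 windows of expressed genes (4 to 29) and 15 in the 9 windows of the others (4 to 45), against a median of 7 over 32851 promoters. The 2 silent genes at the posterior ends, Hoxa13 and Hoxd13, had 45 and 37 CpGs. The letters TGGAAA, the core of the element bound by NFAT5, were searched on both strands and occurred in 6 of the 24 Hox windows (25.0%) and in 21.4% of all promoters. They were in 2 of 15 windows of expressed and 4 of 9 windows of silent genes. Hoxa10 and Hoxd11 each have a second RefSeq window, which is not printed here. That of Hoxa10 held 21 CpGs and the letters TGGAAA, and that of Hoxd11 held 25 CpGs and not these letters, so the contrasts between the printed windows do not hold for every start of these genes.

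Under isotonic conditions, Hox genes of Nfat5-KO and Scr cells had similar levels. Over the 22 members with at least 0.5 FPKM in 1 of the 2 groups, log2 ratios of FPKM + 0.1 (Nfat5-KO_300 over Scr_300) ran from -0.42 (Hoxb8) to 0.36 (Hoxa3), with a median of 0.06. The median of all 12704 genes was 0.00. None of the 22 was at least 2-fold different, where 4.17% of all genes were, and none was at least 1.5-fold different, where 11.5% were. Hoxa and Hoxb genes leaned in different directions, with 8 of 9 Hoxa genes higher and 6 of 9 Hoxb genes lower in Nfat5-KO_300, and 49.8% of all genes were higher. The Hoxa median was 0.10 and the Hoxb median -0.16. The only Hoxa gene that was lower was Hoxa5 (-0.28). Within Hoxb, the genes from Hoxb5 to Hoxb8 were all lower (-0.37, -0.24, -0.18 and -0.42), while Hoxb9 (0.23) and Hoxb13 (0.24) were higher.

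Under hypertonic conditions, the 2 largest differences between the genotypes were those of Hoxd10 and Hoxd4. Over 23 members, log2 ratios of Nfat5-KO_600 over Scr_600 ran from -0.36 (Hoxb6) to 0.98 (Hoxd10) with a median of 0.13, and the median of all 13063 genes was -0.02. None reached a 2-fold difference, where 7.44% of all genes did, although Hoxd4 passed it with a pseudocount of 0.01 (log2 ratio 1.01). At least 1.5-fold higher were Hoxd10 and Hoxd4 (0.98 and 0.96), which is 2 of 23 beside 9.84% of all genes, and none was 1.5-fold lower, where 9.44% of all genes were. Lrp2, the proximal tubule marker, was at 1.07 FPKM in Nfat5-KO_600 and at 0.17 or less in the other groups. It reached 0.5 FPKM in Nfat5-KO_600 only, so that its direction here follows from the filter on low values. The remaining 3 markers of that cell type were at or near 0, and the part of Lrp2 in these differences was not tested. Markers of the principal cell, the cell type that mpkCCD cells stand for, differed in the same comparison. Of its 8 expressed markers 4 were at least 2-fold higher in Nfat5-KO_600, Hsd11b2 (log2 ratio 3.06), Gata3 (2.77), Scnn1a (2.33) and Tfcp2l1 (1.08). In all, 6 of the 8 were higher, and Krt8 (-0.38) and Krt18 (-0.19) were lower. Markers of intercalated cells went both ways. Atp6v1b1 was lower (-1.37), while Slc4a1 (0.03 FPKM in Scr_600 and 0.42 in Nfat5-KO_600) and Slc26a4 (0.08 and 0.11) were higher but below 0.5 FPKM. The part of these markers was not tested either. The 4 Hoxd genes with at least 0.5 FPKM in every group were higher in Nfat5-KO_600, beside 47.8% of all genes, with Hoxd8 at a ratio of 0.54 and Hoxd9 at 0.17. Hoxd3 (0.42) reached 0.5 FPKM in Nfat5-KO_600 only, so that its direction in every comparison with that group follows from the filter on low values and adds nothing to these counts. Of the Hoxa genes 6 of 9 were higher (median 0.22), led by Hoxa9 (0.55). Of the Hoxb genes 7 of 9 were lower (median -0.12), while Hoxb13 was higher by 0.48. The plot of log2 ratios sets these differences beside the other comparisons.

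**Figure D3:**
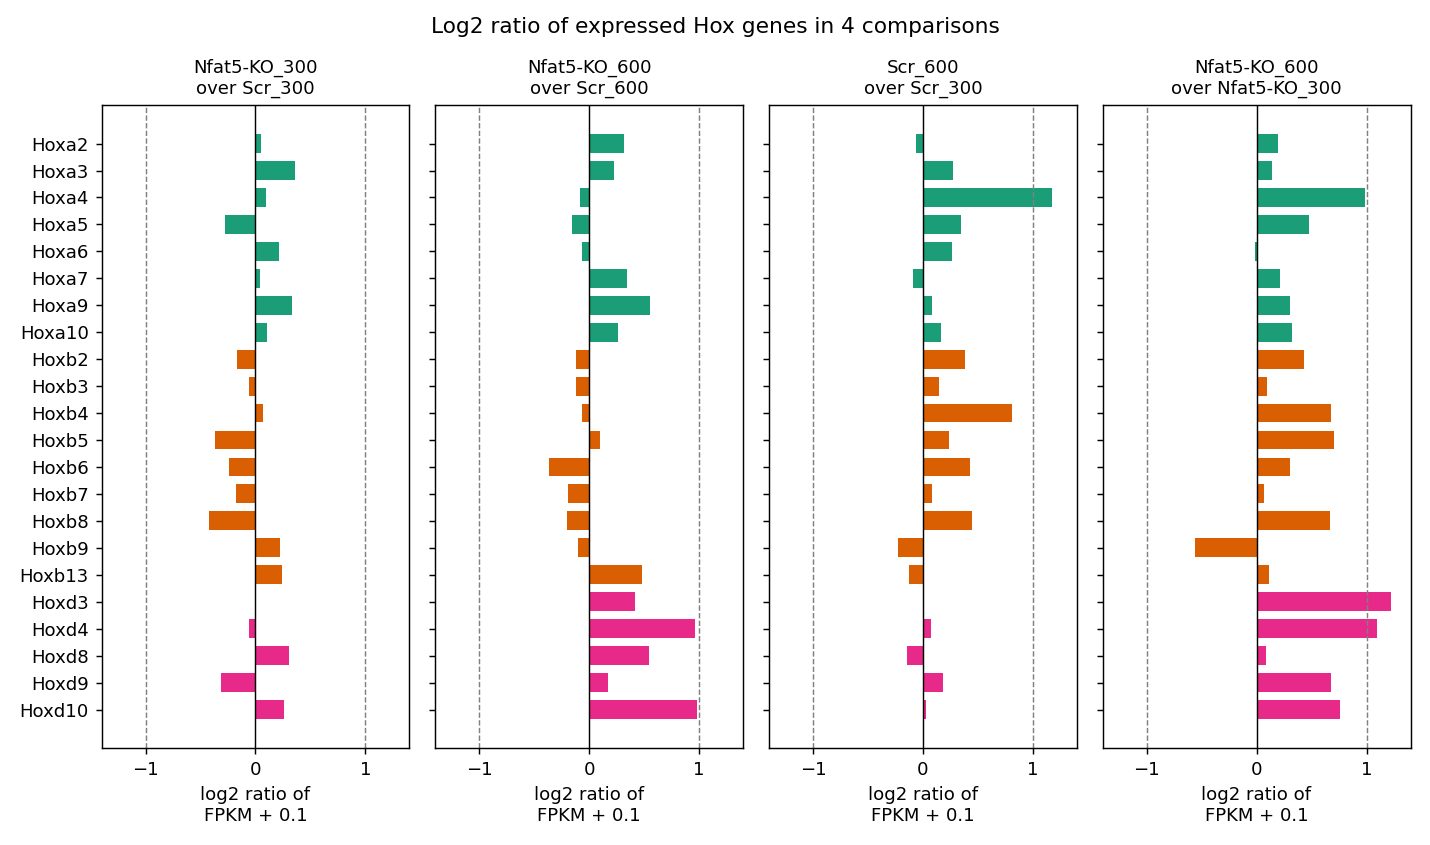
Log2 ratio of FPKM + 0.1 for 22 expressed Hox genes in the 4 comparisons (green Hoxa, orange Hoxb, pink Hoxd), 1 bar per gene and no error, as there is 1 value per group. Dashed lines mark a 2-fold difference, and no bar is drawn where neither group reached 0.5 FPKM. In Nfat5-KO_600 over Scr_600 the Hoxd bars point to higher levels, that of Hoxd3 by the filter alone, and 7 of 9 Hoxb bars to lower levels.

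In Scr cells, most Hox genes were somewhat higher in the hypertonic column. Of 22 members 16 were higher in Scr_600 than in Scr_300, beside 45.4% of all genes, and the median was 0.16 against -0.04 over 12929 genes. Only Hoxa4 reached a 2-fold difference, where 7.67% of all genes did. Hoxa4 was at 0.786 FPKM (about 90 reads) in Scr_300 and 1.90 FPKM (about 225 reads) in Scr_600, a log2 ratio of 1.17. Its paralogue Hoxb4 was at 3.47 and 6.17 FPKM, a ratio of 0.81, and the third expressed member of paralogue group 4, Hoxd4, had a ratio of 0.07. Hoxa4 and Hoxb4 were the 2 of 22 members at least 1.5-fold different, beside 19.4% of all genes. Hoxb9 (-0.23), Hoxd8 (-0.15) and Hoxb13 (-0.12) were among the members with lower values. By position, 9 of 11 members of groups 4 to 8 were higher, with a median of 0.26, and 4 of 6 members of groups 9 to 13, with a median of 0.06.

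In Nfat5-KO cells, 20 of 23 members were higher at 600 than at 300 mosmol/kg, beside 47.1% of all genes, with a median of 0.31 against -0.04 over 12982 genes. At least 2-fold higher were Hoxd3 (1.23) and Hoxd4 (1.09), which is 2 of 23 beside 6.25% of all genes. At least 1.5-fold higher were 8 of 23, beside 14.1% of all genes. Hoxd3 was tested only because of its value in Nfat5-KO_600, and without it 19 of 22 were higher, 1 at least 2-fold and 7 at least 1.5-fold. Besides Hoxd3 and Hoxd4 these were Hoxa4 (0.99), Hoxd10 (0.76), Hoxb5 (0.71), Hoxb4 (0.68), Hoxd9 (0.67) and Hoxb8 (0.67). No Hox gene was 1.5-fold lower, where 13.8% of all genes were. Among the 3 members with lower values were Hoxb9 (-0.56) and Hoxa6 (-0.02).

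Scr and Nfat5-KO cells share no library in the 2 comparisons of osmolality, so the ratios can be set side by side. Of the 22 members tested in both, 15 were higher under hypertonic conditions in both genotypes, beside 32.5% of 12497 genes, and 17 had ratios of the same sign, beside 74.0% of these genes. Hoxa4 and Hoxb4 were high in both genotypes, and Hoxb9 was lower in both. For the 4 Hoxd genes other than Hoxd3 the hypertonic over isotonic ratio was higher in Nfat5-KO than in Scr cells, as it was for 4 of 9 Hoxb genes, 5 of 9 Hoxa genes and 48.0% of 13414 genes. The difference of the log2 ratios was 1.02 for Hoxd4, 0.72 for Hoxd10, 0.49 for Hoxd9 and 0.23 for Hoxd8, and that of Hoxb5 was 0.47. Hoxb differences ran from -0.33 to 0.47 with a median of -0.01 and Hoxa differences from -0.28 to 0.30, so that Hoxd8 lay within the range of the other clusters and Hoxd9 just above it. This difference uses all 4 columns and is not independent of the comparisons above.

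**Figure D4:**
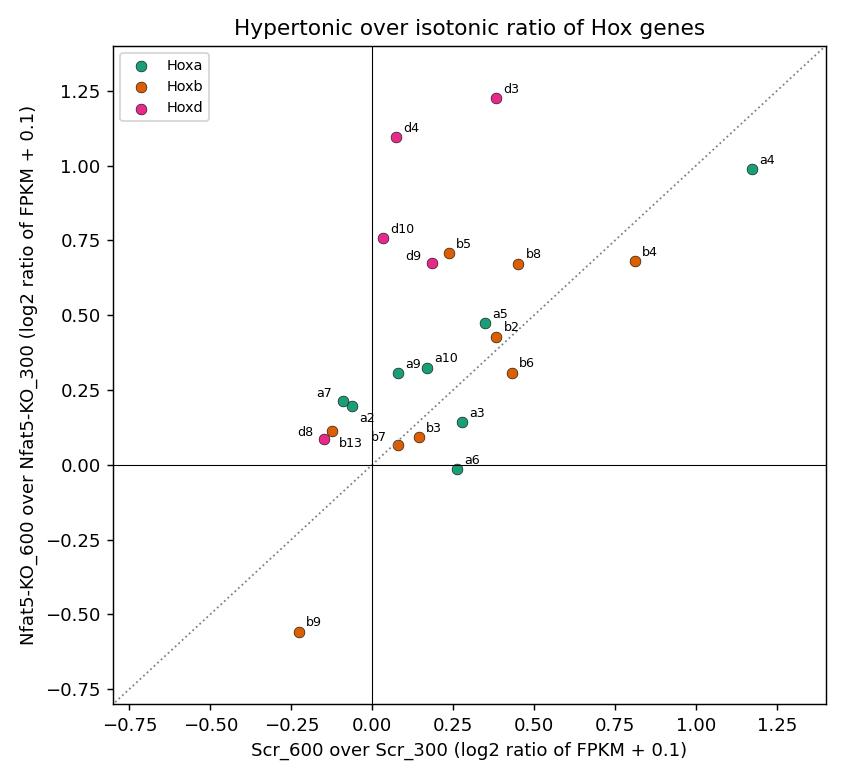
Hypertonic over isotonic log2 ratio of FPKM + 0.1 in Nfat5-KO cells (vertical) against that in Scr cells (horizontal) for 22 expressed Hox genes, coloured by cluster, with the line of equal ratios dotted. The Hoxd genes lie above the line, Hoxd3 by the filter alone, as it was below 0.5 FPKM in the other 3 groups, and Hoxd8 is among the points of the other clusters.

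Of the 23 expressed genes, 12 had their highest value in Nfat5-KO_600, where 27.9% of 13414 genes had theirs. They were the 5 Hoxd genes, 5 Hoxa genes (Hoxa2, Hoxa3, Hoxa7, Hoxa9 and Hoxa10) and, of the Hoxb genes, Hoxb5 and Hoxb13. Without Hoxd3, which could be counted only there, it was 11 of 22. Scr_600 was the highest group for 6 of 9 Hoxb genes (Hoxb2, Hoxb3, Hoxb4, Hoxb6, Hoxb7 and Hoxb8), beside 21.2% of all these genes. No Hox gene was highest in Scr_300, where 24.9% of all these genes were highest. The cluster shares moved accordingly, with Hoxd at 18.0, 17.4, 18.6 and 23.5% of the summed Hox FPKM in Scr_300, Scr_600, Nfat5-KO_300 and Nfat5-KO_600, and Hoxa at 16.0, 17.0, 16.6 and 19.3%. Values of a gene differed less between the groups than levels differed among the Hox genes. In 10 of the 23 genes the highest group was at most 1.5 times the lowest, and in 4 (Hoxa4, Hoxd3, Hoxd4 and Hoxd10) it was at least 2 times the lowest. Hoxd3 is among these through Nfat5-KO_600, the only group where it reached 0.5 FPKM. The matching shares of all genes were not calculated, so these counts do not set Hox genes apart from other genes.

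The clusters also hold RNAs that are not Hox genes. Of 45 such annotated genes in the values, 20 reached 0.5 FPKM in a group, 9 in the Hoxa, 7 in the Hoxb, 4 in the Hoxd and 0 in the Hoxc span. Hoxd3os1, an antisense RNA, shares exonic bases with Hoxd3 and Hoxd4 and spans Hoxd8 without sharing any of its exonic bases. Hoxd3os1 was at 0.94 FPKM in Scr_300, 1.03 in Scr_600, 0.98 in Nfat5-KO_300 and 2.47 in Nfat5-KO_600. Gm14396, a non-coding RNA between Hoxd10 and Hoxd9, was at 0.61, 0.79, 0.88 and 2.59 FPKM. For both, the value in Nfat5-KO_600 was more than 2-fold that in Scr_600. Gm28793, antisense and just before the start of Hoxd9, was at 0.45, 1.44, 0.78 and 2.28 FPKM, with about 13 reads in Scr_300. Gm28230, a protein-coding gene model on the strand of the Hoxd genes, was at 0.25, 0.33, 0.31 and 0.60 FPKM and so entered through Nfat5-KO_600 alone. As the strand setting of the counting is not given in the sources used here, reads from these RNAs and from overlapping Hox genes cannot be told apart. This touches Hoxd3 and Hoxd4 most, and in the other clusters Hoxb3, with 52.9% of its exonic bases in exons of its antisense RNA Hoxb3os.

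**Figure D5:**
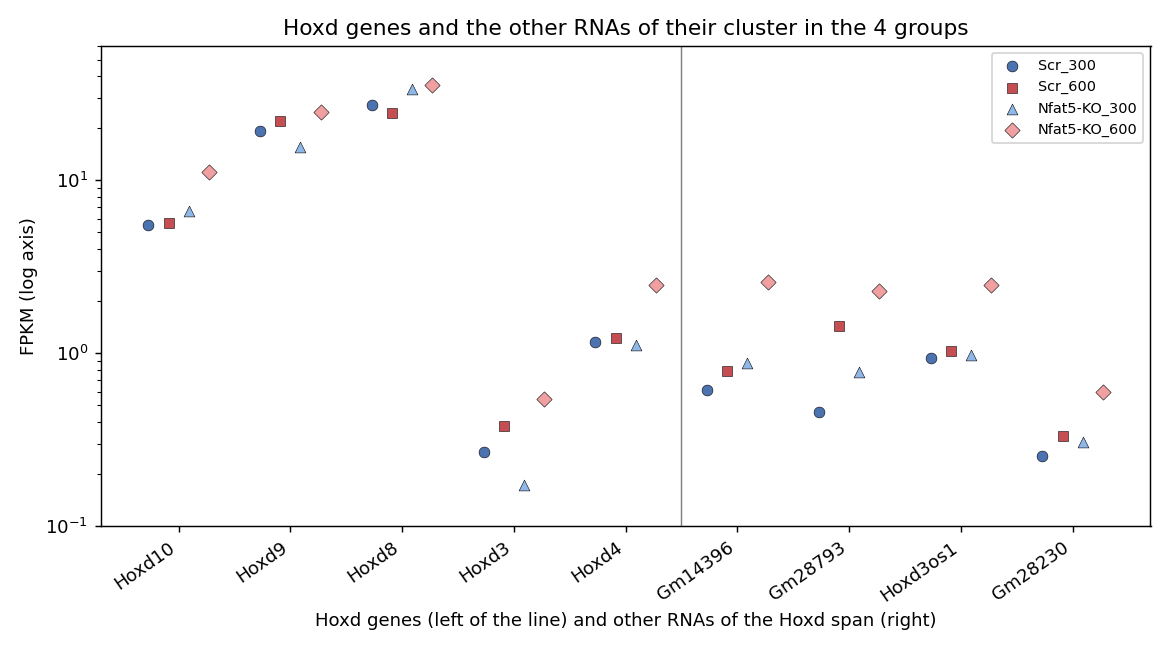
FPKM (log axis) of the 5 expressed Hoxd genes and of the 4 other RNAs of the Hoxd span in the 4 groups, 1 point per group. The Nfat5-KO_600 point is the highest of each, which for Hoxd3 and Gm28230 follows from the filter on low values.

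In the Hoxb span the 7 expressed RNAs had lower values in Nfat5-KO_600 than in Scr_600, as had 6817 of the 13063 genes that entered this comparison. Hoxb3os is not among those genes, as it was below 0.5 FPKM in both columns (0.44 in Scr_600 and 0.41 in Nfat5-KO_600). The log2 ratios of 3 of the RNAs lay near 0, Gm11536 (-0.05), Hoxb3os (-0.07) and Hoxb5os (-0.08). In Nfat5-KO_300 compared with Scr_300, 5 of the 7 were lower, beside 6377 of 12704 genes. Among the 5, Gm11536 was at 1.95 FPKM in both columns. Hoxb3os reached 0.5 FPKM in Scr_300 only (0.55, and 0.26 in Nfat5-KO_300). Its direction in this comparison thus follows from the filter on low values and adds nothing to the count. Gm53, a non-coding RNA between Hoxb13 and Hoxb9, was at 8.24, 12.4, 6.65 and 10.8 FPKM, and Hoxb5os at 7.69, 9.16, 6.13 and 8.67 FPKM. In the Hoxa span Hotairm1, an antisense RNA beside Hoxa2, was at 3.52, 4.85, 4.19 and 4.97 FPKM. Hottip, which lies beyond Hoxa13, was listed at 0.

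Hox clusters also encode microRNAs that target Hox transcripts. The sequences are shown because copies in different clusters share a seed, and the copies of one family differed in the value listed at their locus. Capitals mark the seed, bases 2 to 8 (RefSeq, GRCm38.p6).
miR-10a-5p, Hoxb cluster, chr11:96317186-96317208: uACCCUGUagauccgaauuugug
miR-10b-5p, Hoxd cluster, chr2:74726074-74726096: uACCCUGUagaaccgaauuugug
miR-196a-5p, Hoxb cluster, chr11:96265187-96265208, and Hoxc cluster, chr15:102973365-102973386: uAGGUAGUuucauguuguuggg
miR-196b-5p, Hoxa cluster, chr6:52230129-52230150: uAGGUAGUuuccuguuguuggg

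Within each family the mature sequences differed at 1 base, counted from the 5′ end, U12A from miR-10a to miR-10b and A12C from miR-196a to miR-196b, so that the seeds are identical. The libraries were made from polyadenylated RNA, and values at these loci are reads of longer transcripts that cover the hairpin, not mature microRNA. The Mir196a-1 locus between Hoxb13 and Hoxb9 was at 19.8, 24.1, 20.8 and 20.6 FPKM, whereas Mir196a-2 in the silent Hoxc cluster and Mir196b in the Hoxa cluster were listed at 0. All 85 bases of the Mir196b hairpin lie in exons of Hoxa9 on the same strand, a gene with 7.98 to 12.4 FPKM, so its listed 0 does not show that the locus was silent. The Mir10b locus was at most 0.29 FPKM. The Mir10a locus was at 4.19 FPKM (about 33 reads) in Scr_300, 8.69 (about 71 reads) in Scr_600, 3.24 in Nfat5-KO_300 and 4.12 in Nfat5-KO_600. Its value in Scr_600 was the highest of the 4, with log2 ratios of 1.04 over Scr_300 and, for Nfat5-KO_600 over Scr_600, of -1.06, and rests on few reads over 110 bases.

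Hoxb8 carries the best match to miR-196a among the transcripts. The site lies 421 bases after the end of its coding sequence, in the 3′ untranslated region of the terminal exon, at chr11:96284888-96284909 (plus strand, GENCODE M21, GRCm38). Capitals mark the bases that pair with miR-196a.
Hoxb8 site: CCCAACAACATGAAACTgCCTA

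Of the 22 bases, 21 formed Watson-Crick pairs, and the base in lower case (A18G, counted from the 5′ end of the site) stands opposite base 5 of the microRNA, a U, with which G can form a wobble pair. In a scan of the annotated coding transcripts of 21877 genes no other gene had 21 pairs, the next best had 17, and the median gene had 13. The other 38 Hox genes had 11 to 15. Hoxb8 was expressed at 12.1 to 22.3 FPKM, beside a Mir196a-1 locus with 19.8 to 24.1 FPKM.

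The partners and regulators of Hox proteins were for the most part expressed. Values at least 2-fold different are set here beside those of all genes, of which 4.17% were between Nfat5-KO_300 and Scr_300, 7.44% between Nfat5-KO_600 and Scr_600, 7.67% between Scr_600 and Scr_300 and 10.4% between Nfat5-KO_600 and Nfat5-KO_300. HOX proteins bind DNA together with PBX and MEIS or PKNOX proteins, and 7 of 9 such genes were expressed. Pbx2 was the highest with 13.2, 16.2, 10.8 and 14.0 FPKM in Scr_300, Scr_600, Nfat5-KO_300 and Nfat5-KO_600 and Pbx3 was at 7.19, 8.53, 7.47 and 8.08 FPKM. Meis1 was listed at 0 in every group, and Pknox2 was at or near 0. Meis2 was the only one at least 2-fold different in any comparison, with 2.13 FPKM in Scr_300 and 0.90 in Scr_600, a log2 ratio of -1.16. All 27 listed genes of the Polycomb repressive complexes, which keep silent Hox genes off, were expressed. Among them only Phf1, an accessory subunit, was 2-fold different in a comparison, with 1.33 FPKM in Nfat5-KO_300 and 2.91 in Nfat5-KO_600. The catalytic subunit Ezh2 was at 17.8, 14.3, 21.9 and 16.5 FPKM and the core subunit Suz12 at 53.7, 52.5, 43.1 and 47.3 FPKM. All 13 genes of the Trithorax and MLL complexes and of demethylases, which oppose Polycomb, were expressed, and none was 2-fold different.

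Of 19 genes known to act upstream of Hox genes, 10 were expressed. The Cdx genes, which start Hox expression in the embryo, and the retinoic acid receptor gene Rarb were near 0. The receptor genes Rara and Rarg were expressed, and Rxra, their partner, was at 5.73, 6.35, 9.94 and 17.1 FPKM and was the only listed gene at least 2-fold different, with a log2 ratio of 1.41 for Nfat5-KO_600 over Scr_600. Of 22 listed genes that flank the clusters, 17 were tested between the hypertonic columns, and 2 were at least 2-fold higher in Nfat5-KO_600. They were Copz2 beside the Hoxb cluster (0.80 and 2.47 FPKM in Scr_600 and Nfat5-KO_600) and Snx10 on the chromosome of the Hoxa cluster (0.20 and 0.65 FPKM). Snx10 entered this comparison through Nfat5-KO_600 alone, so that its direction there follows from the filter on low values. Mtx2, which lies beyond Hoxd1, was at 22.6, 17.8, 20.4 and 16.6 FPKM, and Evx2, which lies beyond Hoxd13, was near 0. The higher values in Nfat5-KO_600 within the Hoxd span were thus not seen in Mtx2, whose log2 ratio over Scr_600 was -0.09. Mtx2 is a single gene, and of the 17 flanking genes tested over all clusters 8 were higher and 9 lower in Nfat5-KO_600. Snx10 is among the 8 by the filter alone.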

How the data were processed

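Polyadenylated RNA of 12 mpkCCD cultures was sequenced. According to the methods, the authors discarded adapter, poly-N and low-quality reads, aligned the read pairs with HISAT2 to GRCm38 (mm10) and obtained gene counts from HTSeq. The table that the authors deposited holds FPKM, with a single value for each gene and each of the 4 groups. The annotation release, the strand setting and the way libraries of a group were combined are not given in the sources used here.

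Groups come from the labels of the samples. The table has 54839 rows, and 2436 of them are empty. Exact duplicates (311, of which 1 is a Hox gene) were dropped, as were 37 symbols with rows that differ, which left 52015 genes. A difference is the log2 ratio of FPKM + 0.1, a scale that compresses differences of low genes. A gene entered a comparison if either group had 0.5 FPKM or more, and a single ratio is printed if neither group was under 0.1 FPKM. With 1 value per group no test, SD or p-value was calculated. Every Hox gene entered the counts, sums and medians, and those reaching 0.5 FPKM anywhere were named, except that the values of 1 Hox gene and of 2 genes of the lists are not reported here. Members and lists were chosen with earlier results of these data known, and the 1.5-fold limit and the counts without Hoxd3 were chosen after the data were seen.

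Positions and exon lengths come from GENCODE M21 (GRCm38), and promoter and microRNA sequences from RefSeq (GRCm38.p6). Reads were estimated as FPKM times exon length in kb divided by the value of the lowest step, and carry the error of that length. The steps were tested on simulated data with 200 genes of known ratio. Pseudocounts of 1 and 0.01, no filter, a filter of 1 FPKM and median-of-ratios scaling were tried. Values were computed in Python 3.11.15 with pandas 2.3.3, numpy 2.4.6 and scipy 1.17.1, and drawn with matplotlib 3.10.9.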

Additional observations from a re-analysis of the deposited data

How the results depend on the processing

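No paired analysis was possible because the deposited values are 1 per group, and for the same reason no library or clone could be left out. The 4 medians over the Hox genes stayed above 0 under each pseudocount, filter and scaling tried, except that the median of 0.06 for Nfat5-KO_300 over Scr_300 became 0 without a filter on low values, which adds the silent genes. Without that filter the median of 0.31 for Nfat5-KO_600 over Nfat5-KO_300 became 0.092. Counts of Hox genes at least 2-fold different rest on few genes near the limit. For Nfat5-KO_600 over Scr_600 the count of 0 became 1 with a pseudocount of 0.01 and 2 at 1.5-fold. For Scr_600 over Scr_300 the count of 1 became 0 with a pseudocount of 1 and 2 at 1.5-fold. For Nfat5-KO_600 over Nfat5-KO_300 the count of 2 became 0 with a pseudocount of 1, 1 with a filter of 1 FPKM or without Hoxd3 and 8 at 1.5-fold. Of 92 ratios of single genes, 17 moved by over 0.1 on the log2 scale with a pseudocount of 1 and 3 with 0.01, and none did with the other scaling. None of the 92 changed sign under these settings. Without Hoxb9 the Hoxa, Hoxb and Hoxd clusters had 24.3, 48.3 and 27.4% of the summed Hox FPKM in Scr_300, 23.6, 52.2 and 24.1% in Scr_600, 27.0, 42.7 and 30.2% in Nfat5-KO_300 and 25.8, 42.7 and 31.5% in Nfat5-KO_600. Silent genes at 0 to 3 estimated reads lie at the limit of these depths, and low expression of them was not detectable.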

Other observations

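Genes that act with Hox genes in the early kidney were divided in these cells. Of 12 listed genes, 7 reached 0.5 FPKM in a group. Emx2, Pax8, Pax2, Gata3 and Eya1, most of which are known from the ureteric bud and its derivatives, were among them, while Six2 and Sall1, genes of the mesenchymal progenitors, were listed at or near 0. The bud receptor gene Ret and its target Wnt11 were near 0 too. Emx2 was at 12.1, 12.8, 11.7 and 16.2 FPKM in Scr_300, Scr_600, Nfat5-KO_300 and Nfat5-KO_600. Pax2, needed for the whole nephric lineage, was at 6.59, 43.7, 2.23 and 7.85 FPKM, and Gata3, which maintains the nephric duct, was at 3.41, 4.33, 11.8 and 30.0 FPKM. Both were more than 2-fold different between the genotypes at each osmolality, in opposite directions. Gdnf, the ligand of Ret made by mesenchyme, was at 0.46, 0.09, 0.60 and 0.18 FPKM.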
